A study of Mus musculus with 12 samples.

Results

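The H3K27ac landscape of the wild type mouse forebrain was described from 2 of the 12 libraries of the study, the wild type H3K27ac library and the wild type IgG library. They were taken by their labels, and their members are 55385 promoter windows and 8229 H3K27ac summits. Both libraries were made by CUT&Tag, in which an antibody tethers a transposase that cuts the DNA beside it, from untreated forebrain tissue of C57BL/6 embryos at E12.5. IgG is an antibody without a chromatin target and gives the background. Wild type libraries of RNA polymerase II (RNA-Pol2), H3K27me3, Eed and input, and the IgG library of EedcKO, a genotype named for the Polycomb subunit Eed, were used beside them. The sources used here do not name the alleles behind EedcKO, how many embryos were pooled or their sex. There was 1 library per target, so no value has a replicate check and no test across samples was possible.

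Acetylation of lysine 27 on histone H3 is laid down mainly by the acetyltransferases p300 and CBP and removed by histone deacetylases. It marks nucleosomes beside the starts of transcribed genes and at active enhancers. Polycomb repressive complex 2 methylates the same residue, which cannot carry both marks on 1 histone tail. At this stage the forebrain consists mostly of dividing progenitors and of the first neurons born from them.

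A promoter window spans 2 kb around an annotated start. The H3K27ac library held 1944323 reads in these windows and the IgG library 1412310. Reads were scaled so that the windows of each library sum to 1000000 (RPM), and the log2 ratio of H3K27ac to IgG was taken with 1 RPM added to both. A window with at least 20 reads over both libraries was tested, and one with a ratio of at least 2-fold was called acetylated. Windows with the opposite ratio are called lower than IgG. Intervals of single windows are exact 95% Clopper-Pearson intervals of the split of reads, which cover counting error only.

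Sequences from RefSeq (build GRCm38.p6), from 250 bases before to 50 bases after the start, are shown for promoters with extreme values. They are examples and do not stand for all acetylated or unacetylated promoters. The first 3 are high by the ratio to IgG, the fourth has many H3K27me3 and few H3K27ac reads, and the last has few of either. Capitals mark CpG dinucleotides.
Unk, chr11:116030066-116030365, plus strand: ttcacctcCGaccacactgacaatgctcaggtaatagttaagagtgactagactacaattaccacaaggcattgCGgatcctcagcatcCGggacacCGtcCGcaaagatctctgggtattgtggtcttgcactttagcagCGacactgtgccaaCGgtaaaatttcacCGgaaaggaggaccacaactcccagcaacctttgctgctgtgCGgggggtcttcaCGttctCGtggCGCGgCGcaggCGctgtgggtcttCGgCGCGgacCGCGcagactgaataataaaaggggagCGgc
Birc2, chr9:7837008-7837307, minus strand: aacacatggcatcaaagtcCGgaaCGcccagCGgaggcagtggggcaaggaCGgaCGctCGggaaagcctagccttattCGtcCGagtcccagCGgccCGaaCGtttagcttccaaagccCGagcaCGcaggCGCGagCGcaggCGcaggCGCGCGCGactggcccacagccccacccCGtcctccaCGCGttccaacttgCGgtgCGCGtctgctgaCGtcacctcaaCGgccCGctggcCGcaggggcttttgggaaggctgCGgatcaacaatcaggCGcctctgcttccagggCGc
Klf6, chr13:5861239-5861538, plus strand: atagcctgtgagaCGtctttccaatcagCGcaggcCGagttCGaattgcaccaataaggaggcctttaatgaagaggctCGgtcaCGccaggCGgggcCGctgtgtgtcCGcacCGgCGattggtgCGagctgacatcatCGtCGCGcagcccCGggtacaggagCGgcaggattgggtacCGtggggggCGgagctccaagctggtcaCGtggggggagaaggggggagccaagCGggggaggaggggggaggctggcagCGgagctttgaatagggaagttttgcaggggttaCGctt
Hoxd12, chr2:74674763-74675062, plus strand: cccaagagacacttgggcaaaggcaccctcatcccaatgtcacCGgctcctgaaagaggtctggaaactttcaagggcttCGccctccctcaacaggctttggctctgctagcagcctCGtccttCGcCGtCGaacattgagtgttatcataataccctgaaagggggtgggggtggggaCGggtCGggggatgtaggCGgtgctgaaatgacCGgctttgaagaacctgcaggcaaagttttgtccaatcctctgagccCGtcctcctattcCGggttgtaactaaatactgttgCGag
Olfr485, chr7:108159822-108160121, minus strand: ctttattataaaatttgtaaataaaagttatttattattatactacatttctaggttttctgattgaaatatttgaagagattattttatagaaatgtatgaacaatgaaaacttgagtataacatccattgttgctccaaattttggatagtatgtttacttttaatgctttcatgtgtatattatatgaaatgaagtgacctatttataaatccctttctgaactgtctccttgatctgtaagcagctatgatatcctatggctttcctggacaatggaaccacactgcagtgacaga
Unk, which encodes an RNA-binding zinc finger protein, held 137 H3K27ac and 5 IgG reads. Birc2, an inhibitor of apoptosis, held 149 and 6, and Klf6, a zinc finger transcription factor, held 146 and 7. Hoxd12, a regulator of the posterior body axis, held 16 H3K27ac and 22 IgG reads beside 2136 reads of H3K27me3. Olfr485, an olfactory receptor gene, held 0 H3K27ac, 23 IgG and 8 H3K27me3 reads. The printed stretches contained 21 CpG in Unk, 34 in Birc2, 23 in Klf6, 13 in Hoxd12 and 0 in Olfr485. Medians were taken over tested promoters whose RefSeq start lay within 100 bp of the window's centre. They were 24 CpG in 4210 acetylated promoters and 2 in 1811 lower than IgG. The other 7679, past neither threshold, had a median of 11.

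A minority of promoters was called acetylated. Of 47492 windows tested, 8009 were acetylated (16.9%) and 12846 lay at least 2-fold below IgG (27%). Of the windows past 2-fold in either direction 38.4% were thus higher than IgG, a share that was 51.3% when the library medians were made equal and 80.02% with both scaled to windows far from any summit. The acetylated windows merge into 6136 separate regions, because windows of neighbouring genes overlap and then count the same reads. The acetylated windows held 35.7% of the H3K27ac reads and 11.2% of the IgG reads, a difference that follows from how they were picked. At least 4-fold over IgG were 1568 windows and at least 8-fold 105. The median log2 ratio over all tested windows was -0.32, with 5% of windows under -2.27 and 5% over 1.81. With the EedcKO IgG library in place of wild type IgG, 4273 of 46639 windows were acetylated (9.16%), and 3240 of these were among the 8009. The set of acetylated windows thus differs with the control library. Counts with both controls are given for the gene lists and the leading genes; those by gene type, divergent neighbour and chromosome use wild type IgG only.

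**Figure D1:**
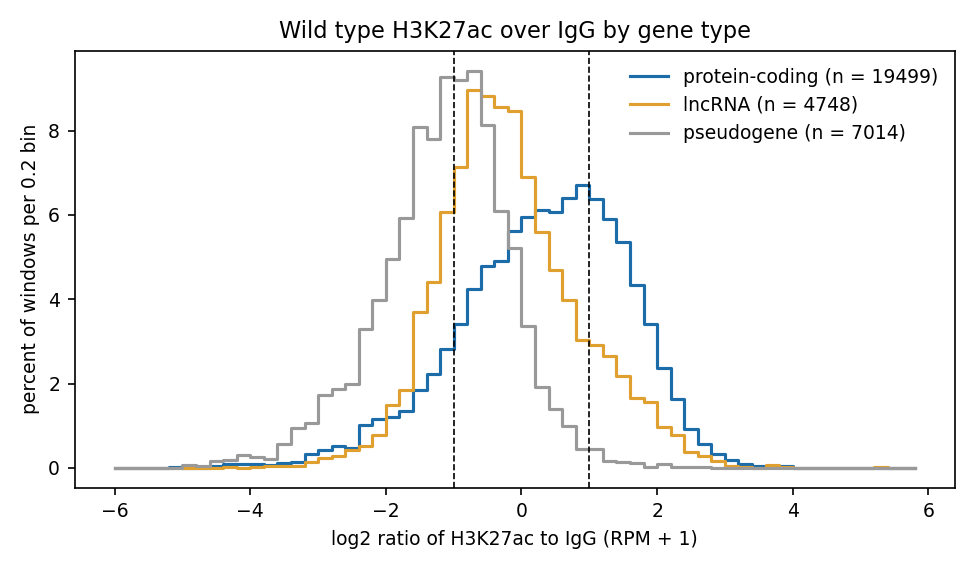
Log2 ratio of wild type H3K27ac to IgG for tested windows of 3 gene types, as the percent of windows per bin of 0.2. Dashed lines mark 2-fold; protein-coding windows have a median of 0.43 and pseudogenes of -1.06.

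Gene type separated the windows. Of 19499 protein-coding windows tested, 6172 were acetylated (31.7%) and 2748 were lower than IgG (14.1%). They made up 77.1% of all acetylated windows. Of 4748 long noncoding RNA windows 651 were acetylated (13.7%), and of 1103 microRNA windows 123 (11.2%). Of 7014 pseudogene windows 73 were acetylated and 3702 lower than IgG. Receptor gene families of the nose and of lymphocytes stood at the bottom. Of 1353 windows of olfactory and vomeronasal receptor genes none was acetylated and 1144 were lower than IgG, with medians of 8 H3K27ac and 25 IgG reads. Of 288 windows of immunoglobulin and T cell receptor V segments none was acetylated and 258 were lower, with medians of 6 and 28 reads.

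Ranked by read count among acetylated windows of named protein-coding genes, the first 15 held 199 to 254 H3K27ac reads and 20 to 55 IgG reads. Hdlbp, an RNA-binding protein of lipoprotein metabolism (chromosome 1, 93477815 to 93479814 in mm10), was first with 254 and 33 reads, a log2 ratio of 2.43 (interval 1.96 to 3.05), in a window that overlaps that of the septin gene Sept2. Rita1, whose product binds the Notch effector RBPJ, held 251 and 30 reads (2.55, interval 2.05 to 3.20) in a window that overlaps that of the RNA helicase gene Ddx54. Arpc4, a subunit of the actin-nucleating Arp2/3 complex, held 250 and 34 (2.37) and shares its window with Tada3, a subunit of histone acetyltransferase complexes. Lrrc41 held 239 and 24 (2.78) beside Uqcrh, a subunit of respiratory complex III. Of the 15 windows 10 overlap the window of another gene, these 4 among them, and their reads cannot be assigned to 1 gene.

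Among the others of these 15, the windows of Cpsf2, Nfya, Ewsr1, Cenpn, Insig1 and Ube2d3 also overlap that of a neighbour. Cpsf2, a subunit of the mRNA cleavage complex, held 223 H3K27ac and 30 IgG reads, and Ewsr1, an RNA-binding protein, held 206 and 30. Hdac2, a histone deacetylase that removes acetyl groups from histones, held 221 and 55 (log2 ratio 1.52, interval 1.11 to 2.00), and Nfya, a subunit of the factor that binds CCAAT boxes, held 211 and 29. Cenpn, a centromere protein gene, held 200 and 28, and Ube2d3, a ubiquitin-conjugating enzyme gene, 199 and 20. The rest were Insig1, a regulator of sterol synthesis (216 and 39), Map7d1 (220 and 37), Rap2a, a small GTPase gene (206 and 22), Gpsm1, a regulator of G proteins (200 and 39), and Trim39 (200 and 46). All 15 windows held an H3K27ac summit and 10 an RNA-Pol2 summit. The 15 were picked for high H3K27ac counts, and the H3K27ac summits come from the same library. Of all 259 windows with at least 80 RPM of H3K27ac, 94.98% held an H3K27ac summit and 69.88% an RNA-Pol2 summit. EedcKO IgG held 35 to 89 reads at the 15 windows. Against it all 15 stayed at least 2-fold over the control, with log2 ratios from 1.03 to 2.15.

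Ranked by the ratio to IgG instead, a different set of genes led. The 15 with the highest ratio among windows with at least 100 H3K27ac reads held 105 to 184 H3K27ac and 5 to 12 IgG reads. Unk had the highest log2 ratio, 3.98 (interval 3.06 to 5.96), followed by Birc2 with 3.89 (3.02 to 5.64). Rmi1, which acts in the resolution of DNA crossovers, held 174 and 8 reads (3.76) and overlaps the window of Hnrnpk. Hnrnpll, a splicing regulator, held 131 and 6 (3.70), and Klf6 had 3.68.

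Among the rest of these 15, Rps19, a ribosomal protein gene, held 146 H3K27ac and 9 IgG reads (log2 ratio 3.37). Atg101, needed to start autophagy, held 160 and 10, and Derl1, a channel protein of ER-associated degradation, 106 and 7. Also among them were Fbxo33, Cacybp, Phf20, Trio, a guanine nucleotide exchange factor of axon guidance, and Mkks, with 105, 172, 119, 106 and 170 H3K27ac reads. The window of Cacybp overlaps that of 4933417C20Rik, and the window of Mkks those of AL731706.1 and Slx4ip, so their reads cannot be assigned to 1 gene. All 15 genes were picked for a low IgG count. EedcKO IgG held 20 to 57 reads at the same windows, and against it the log2 ratios ran from 0.81 at Phf20 to 2.68 at Mkks, with 14 of the 15 at least 2-fold over the control.

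Among the 10 windows with the highest ratio of genes that are not protein-coding, 8 overlapped the window of another gene. The RNA gene C920006O11Rik (chromosome 9, 78174914 to 78176913) held 112 H3K27ac and 5 IgG reads and overlaps Rn7sk, the gene of the 7SK RNA that holds back transcript elongation. The window of N4bp2os overlaps that of N4bp2 and held 131 and 6 reads. 1700113A16Rik (107 and 5) and A230083N12Rik (104 and 8) overlapped no other window. All 55385 windows merge into 49043 separate regions, and the share that overlaps another window was not computed. These 10 windows were picked for a high ratio and held 4 to 12 IgG reads. EedcKO IgG held 17 to 61 reads there. Against it the log2 ratios ran from 0.64 to 2.68, with 8 of the 10 at least 2-fold over the control.

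Gene lists of basic cell functions had the largest share of acetylated promoters, beside 31.7% of all protein-coding windows. Of 54 splicing factor genes 47 were acetylated, with a median log2 ratio of 1.78, and 35 had an H3K27ac summit within 1 kb of the start, against 21.7% of all protein-coding windows. Of 78 cytosolic ribosomal protein genes 65 were acetylated (median 1.61) and 45 had a summit. Of 35 translation factor genes 27 were acetylated (1.54) and 19 had a summit, and of 31 proteasome subunit genes 25 (1.32) and 19. None of the ribosomal protein and splicing genes, and 1 gene of each of the other 2 lists, was lower than IgG. Ribosomal protein genes have many processed pseudogenes, and how reads that fit several copies were counted is not given in the sources used here. Against EedcKO IgG, where 16.8% of protein-coding windows pass, 32 splicing, 45 ribosomal, 17 translation and 14 proteasome genes were acetylated.

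Single members spread widely within these lists. Srsf10, a splicing factor gene, held 89 H3K27ac and 4 IgG reads (log2 ratio 3.61), and Hnrnpa0 held 110 and 8. At the lower end Hnrnpm held 28 and 25 (-0.28). Among ribosomal protein genes Rps19 was highest and Rps9, with 34 and 21 reads (0.22), lowest. Eif4a2, an RNA helicase of translation initiation, held 89 and 7, whereas Eif4g1, the scaffold of the same complex, held 15 and 24 (-1.05). Psma7 held 110 and 11 (2.71) and Psma6, another ring subunit of the proteasome, 29 and 47 (-1.11). Windows sit at 1 annotated start per gene, so acetylation at another start of the gene is missed.

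**Figure D2:**
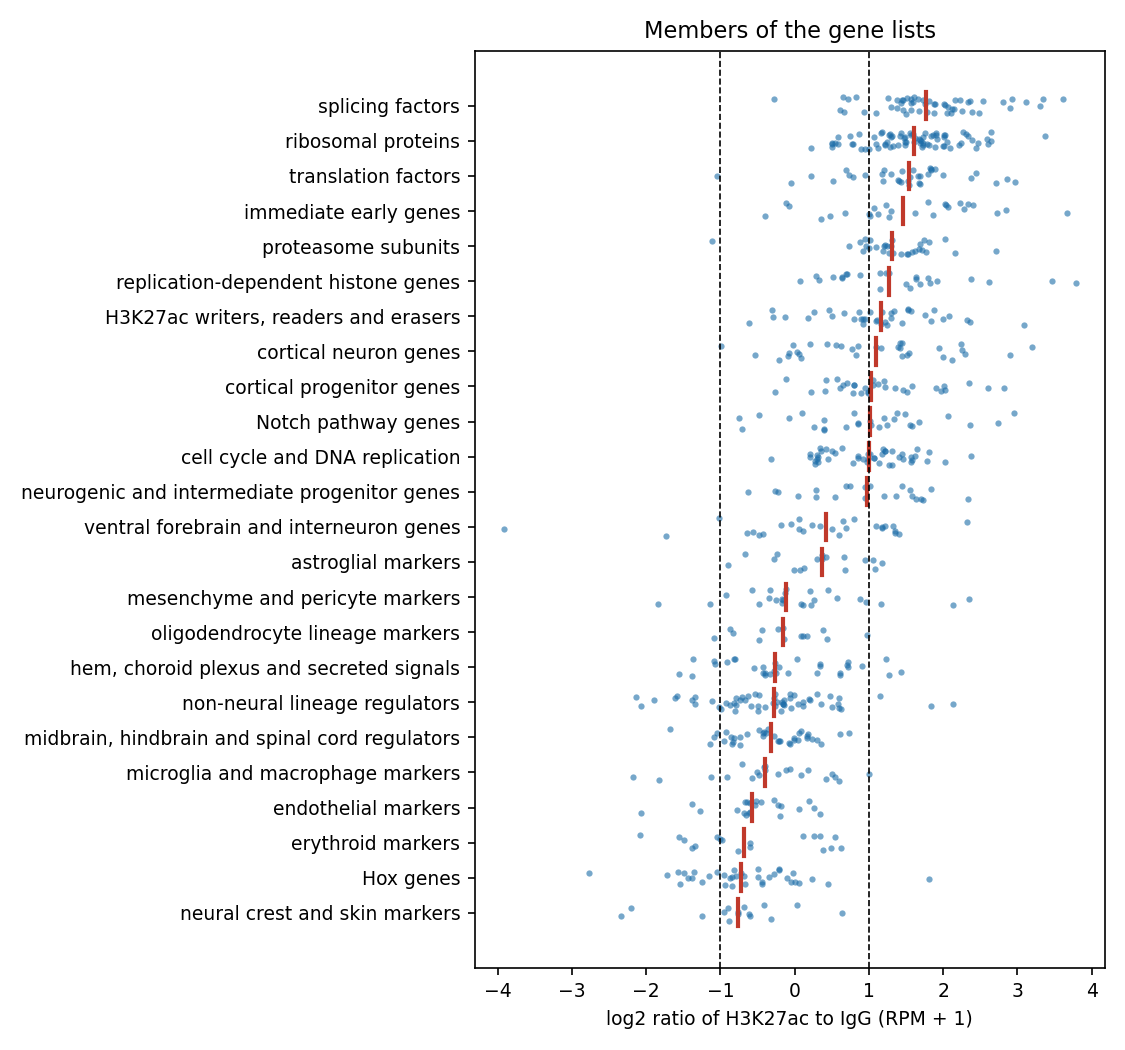
Log2 ratio of wild type H3K27ac to IgG for each tested member of the gene lists (points), with the median of the list as a red bar and 2-fold as dashed lines. Splicing factor genes have the highest median, 1.78, and the list of skin and neural crest markers the lowest, -0.76.

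The enzymes and readers of acetylation were themselves acetylated at many promoters. Of 37 genes of acetyltransferases, bromodomain proteins, deacetylases and their corepressors, 22 were acetylated (median log2 ratio 1.16) and 16 had a summit. Of all protein-coding windows 31.7% were acetylated and 21.7% had a summit. Ep300, which encodes p300, held 128 H3K27ac and 17 IgG reads (2.36, interval 1.72 to 3.28). Crebbp, which encodes CBP, held 54 and 10 (1.83, interval 0.98 to 3.11) and had no summit. Brd2, a reader of acetylated histones, held 108 and 8 (3.08), and Hdac1 held 47 and 18 (0.87). Kat6b, an acetyltransferase gene, was lowest with 28 and 32 reads at its annotated start. Against EedcKO IgG, where 16.8% of protein-coding windows pass, 11 of the 37 were acetylated.

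Among forebrain regulators the genes of progenitors and of neurons were divided. These lists cannot decide the forebrain label, because cell cycle and replication genes gave a like share (23 of 46). Of all protein-coding windows 31.7% were acetylated over wild type IgG and 21.7% had a summit. Of 32 cortical progenitor genes 16 were acetylated and none was lower than IgG (median 1.02), and 6 had a summit. Sox2, a factor that maintains neural progenitors, held 90 H3K27ac and 8 IgG reads (log2 ratio 2.83, interval 1.99 to 4.29), and Vim, an intermediate filament gene of radial glia, 146 and 26 (1.97). Pax6, a master regulator of cortical progenitors, held 59 and 16 (1.35, interval 0.61 to 2.32) with no summit and 999 reads of H3K27me3. Emx1, a cortical regulator, held 91 and 40 (0.71) with a summit, and 1370 reads of H3K27me3. Lhx2 was lowest with 34 and 30 reads (-0.27). In bulk tissue, both marks at 1 promoter can come from different cells.

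Genes of neurogenesis gave similar shares, beside 31.7% acetylated and 21.7% with a summit over all protein-coding windows. Of 22 neurogenic and intermediate progenitor genes 11 were acetylated (median log2 ratio 0.98) and 8 had a summit. Hes6, which favours neuronal differentiation, held 147 H3K27ac and 29 IgG reads (1.83), and Mfng, which glycosylates Notch, 174 and 42 (1.56). The proneural factor gene Neurog2 held 57 and 24 (0.75) with a summit. Eomes, the factor of intermediate progenitors, held 19 and 11 (0.29, interval -0.82 to 1.55). Of 33 cortical neuron genes 17 were acetylated (median 1.09) and 7 had a summit. Sox11, a factor of newborn neurons, held 126 and 11 (2.90, interval 2.17 to 4.10), Cux1 92 and 6 (3.20) and Tubb3, the neuronal tubulin gene, 99 and 17 (1.99). Mef2c, a factor of maturing neurons, held 8 and 13 (-0.997).

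The Notch list resembled the lists above by its count, and the ventral and hem lists had lower medians. Of 28 Notch pathway genes 15 were acetylated (median log2 ratio 1.02) and 9 had a summit. The ligand gene Dll1 held 115 H3K27ac and 27 IgG reads (1.58), the protease gene Adam10 99 and 8 (2.96) and the receptor gene Notch1 65 and 39 (0.27). Of 28 ventral forebrain and interneuron genes 9 were acetylated and 3 lower (median 0.42). This is close to the 31.7% and the median of 0.43 of all protein-coding windows. A summit stood at 2 of the 28, against 21.7% of all protein-coding windows. Dlx5, a regulator of interneurons, held 47 and 12 reads (1.41), Gad1 26 and 18 and Otp 0 and 20 reads. Of 32 genes of the cortical hem, the choroid plexus and secreted signals 3 were acetylated and 5 lower (median -0.26), with Axin2, a target of Wnt signalling, at 63 and 16 and Fgf8 at 13 and 27.

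Of the lists on proliferation and rapid induction, 23 of 46 cell cycle and replication genes were acetylated (median log2 ratio 1.002) and 10 had a summit. The shares over all protein-coding windows were 31.7% acetylated and 21.7% with a summit. Orc6, a subunit of the origin recognition complex, held 155 H3K27ac and 31 IgG reads (1.81), and Mki67, the proliferation marker, 63 and 20 (1.14). Of 26 immediate early genes 19 were acetylated (1.46) and 10 had a summit. Jund, a subunit of the AP-1 factor, held 131 and 12 reads with a summit, and Fos, another, held 96 and 12 (2.41) with none. Of 25 replication-dependent histone genes 16 were acetylated (1.27) and none had a summit. Their medians were 39 H3K27ac and 9 IgG reads, and these genes are near-identical copies, so their counts are uncertain.

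Against EedcKO IgG, where 16.8% of protein-coding windows pass, fewer genes of these lists were acetylated. They were 5 of 32 cortical progenitor, 5 of 22 neurogenic, 11 of 33 cortical neuron, 5 of 28 Notch, 1 of 28 ventral and 1 of 32 hem genes. They were also 7 of 46 cell cycle, 3 of 26 immediate early and 7 of 25 histone genes. The counts of the cortical progenitor, neurogenic, Notch, cell cycle and immediate early lists are near that background, and those of the ventral and hem lists are below it. Sox2 had a log2 ratio of 1.23 and Sox11 of 1.45 against it, whereas Pax6 had 0.31 and Fos 0.38. The difference between both IgG libraries at these promoters was not tested.

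Regulators of other regions and tissues were mostly neither acetylated nor free of H3K27me3. Among all protein-coding windows 31.7% were acetylated and 21.7% had a summit. Of 38 midbrain, hindbrain and spinal cord regulators none was acetylated (median log2 ratio -0.32), with medians of 28 H3K27ac and 1336.5 H3K27me3 reads. Of 37 Hox genes tested 1 was acetylated and 11 lower (-0.73), with medians of 18 H3K27ac and 1384 H3K27me3 reads over the 39 measured. That 1 gene, Hoxa3, held 29 H3K27ac and 5 IgG reads, and its ratio turned to -0.04 against EedcKO IgG. Of 58 non-neural lineage regulators 3 were acetylated and 10 lower (-0.28). The 3 were Prrx1 (49 and 7 reads), Tbx6 (89 and 17), the one with a summit in this list, and Gata6 (39 and 12, log2 ratio 1.15, interval 0.28 to 2.31), which turned to -0.75 against EedcKO IgG. Against that control, where 16.8% of protein-coding windows pass, 1 of the 58 was acetylated.

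Markers of non-neural cells and of glia were rarely acetylated. Over all protein-coding windows 31.7% were acetylated and 21.7% had a summit. None of 22 endothelial, 21 microglia and macrophage, 18 erythroid, 14 oligodendrocyte and 15 skin and neural crest genes tested was acetylated, and none of them had a summit. Their medians were -0.57, -0.39, -0.68, -0.15 and -0.76 on the log2 scale. Of 25 mesenchyme and pericyte genes 3 were acetylated (median -0.12), namely Fn1 (64 and 8 reads), Prrx1 and Vtn (58 and 18), and 1 had a summit. Of 17 astroglial genes 3 were acetylated (0.36): Slc1a2, a glutamate transporter gene (114 and 36), Nfia, a factor that starts gliogenesis (40 and 13), and Gja1 (42 and 14). Against EedcKO IgG, where 16.8% of protein-coding windows pass, no mesenchyme and 2 astroglial genes were acetylated. The negative medians of these lists, and of the hem, midbrain, Hox and non-neural lists, turn positive when both libraries are scaled to windows without a summit, so their sign depends on the scaling. In bulk tissue, few cells of a type and little acetylation per cell cannot be told apart.

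Of 3 genes of Polycomb repressive complex 2, Eed and Ezh2 were acetylated and Suz12 was not. Eed held 130 H3K27ac and 20 IgG reads (log2 ratio 2.16, interval 1.55 to 3.00), and Ezh2, its methyltransferase, 114 and 32 (1.33, interval 0.80 to 1.99), both with a summit. Suz12 held 52 and 20 (0.87, interval 0.15 to 1.74) and had none. Against EedcKO IgG the log2 ratios were 1.04 for Eed, 1.31 for Ezh2 and 0.82 for Suz12. Of all protein-coding windows 31.7% were acetylated over wild type IgG and 21.7% had a summit.

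Acetylated promoters were CpG-rich among the windows whose RefSeq promoter lay within 100 bp of the window's centre. These were 13700 of the tested windows, which hold 52.6% of the acetylated and 14.1% of the lower windows. With under 80% of both covered, the comparison is void for all windows and describes the matched ones only. Of 1897 matched promoters with 0 to 2 CpG in 300 bases, 1.32% were acetylated, with medians of 20 H3K27ac and 30 IgG reads. The share was 35.7% of 3117 promoters with 10 to 19 CpG and 60.1% of 2068 with at least 30, where the medians were 75 and 23 reads. Against EedcKO IgG the shares were 1.05%, 19.5% and 28.7%. A summit lay at 0.422%, 28.1% and 41.5% of the same promoters.

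Short motifs were counted on both strands of the 300 bases. The GC box GGGCGG was in 70.8% of the matched acetylated promoters, in 10.4% of those lower than IgG and in 45.7% of all 14820 matched promoters. The ETS motif CCGGAAG was in 22.0%, 2.32% and 12.2%, and TGACGTC, part of the cyclic AMP response element, in 7.91%, 1.10% and 4.31%. The NRF1 motif GCGCATG was in 8.74%, 1.55% and 5.29%. Each of these 4 motifs contains a CpG. The TATA box TATAAA went the other way, with 6.15%, 25.5% and 12.46%. The CCAAT box differed little, with 41.4%, 42.2% and 39.7%, as did AAGATGG, a YY1 motif without CpG, with 8.29%, 5.91% and 6.63%. A match is a description of letters and not a binding site.

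Promoters with a divergent neighbour were acetylated in a larger share. Of 2257 protein-coding windows with the start of an opposite-strand gene within 1 kb upstream, 1350 were acetylated (59.8%), with medians of 78 H3K27ac and 24 IgG reads, and 48.2% had a summit. Of 17242 without one, 4822 were acetylated (28.0%), with medians of 50 and 27 reads, and 20.6% had a summit. Windows of divergent pairs count the same reads for both genes.

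On the X chromosome the read counts were lower than on autosomes, while the share of acetylated windows was similar. Of 627 protein-coding windows on X 208 were acetylated (33.2%), and of 18869 on autosomes 5964 (31.6%). The median log2 ratio was 0.36 on X and 0.43 on autosomes. The medians were 29 H3K27ac and 16 IgG reads on X, and 54 and 27 on autosomes. Summits lay at 4.94% of the windows on X and at 24.5% of those on autosomes.

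Summits were the positions at which the authors' peak calling placed the highest H3K27ac signal. Of 8229 summits, 4449 lay within 1 kb of an annotated start (54.1%, Wilson 95% interval 53.0 to 55.1), 1040 lay at 1 to 5 kb (12.6%), 2315 at 5 to 50 kb (28.1%) and 425 over 50 kb away (5.16%). Distal summits, over 5 kb from any start, were thus 2740 (33.3%, interval 32.3 to 34.3). Their median score was 4.51 against 6.15 at promoters, on a −log10 scale of a p-value or q-value. Of the 823 summits with a score of at least 10.3, 680 were promoter summits (82.6%). Summits stood at 5683 of all 55385 windows (10.3%), at 4570 of the 8009 acetylated windows (57.1%), and 80.4% of the windows with a summit were acetylated. Distances were counted to 1 start per gene, so a summit at an alternative start can count as distal.

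**Figure D3:**
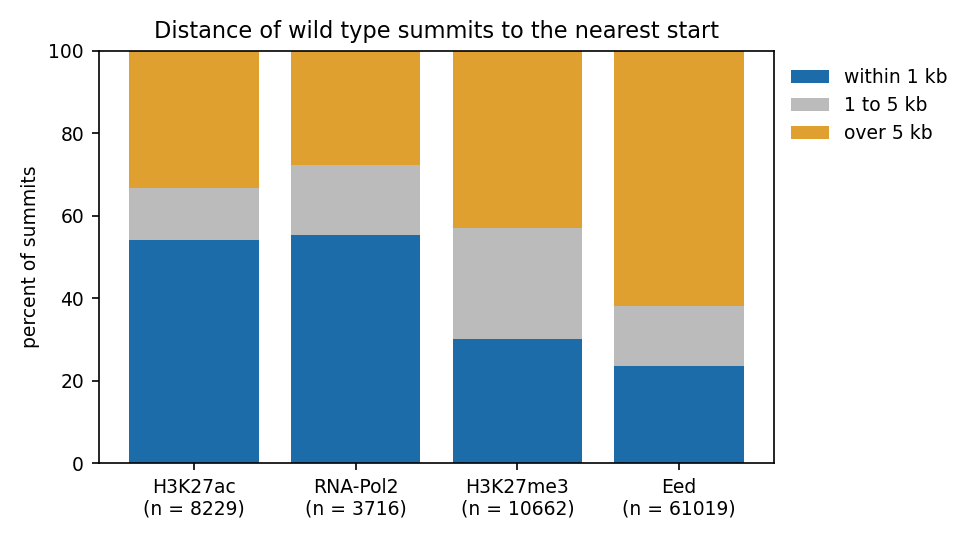
Percent of the summits of the 4 wild type lists by distance to the nearest annotated start. H3K27ac and RNA-Pol2 have 54.1% and 55.4% within 1 kb, H3K27me3 30.1% and Eed 23.6%.

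The promoter share was similar for RNA-Pol2 and lower for the other wild type lists. RNA-Pol2 had 55.4% of 3716 summits within 1 kb of a start (interval 53.8 to 56.9, which overlaps that of H3K27ac) and 27.6% (interval 26.2 to 29.1) over 5 kb away. H3K27me3 had 30.1% and 43.1% of 10662 summits, and Eed 23.6% and 62.0% of 61019. The intervals of the distal share of H3K27ac and of each other list do not overlap, but they cover counting error only and the lists differ in length and depth. Of the promoter summits of H3K27ac, 29.96% lay within 500 bp of an RNA-Pol2 summit, 10.2% of an H3K27me3 summit and 74.3% of an Eed summit. Of the distal ones 6.24%, 3.50% and 14.3% did. These shares depend on the length of the other list, and no chance level was computed, so they do not rank the other libraries. Eed summits also lay within 1 kb of the start at 52.7% of windows with 20 to 40 RPM of H3K27ac. Of those windows 7.65% had an H3K27ac summit.

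At protein-coding starts the summits lay downstream more often than upstream. Of 4115 H3K27ac summits within 1 kb, 2899 lay at or downstream of the start (70.4%), with a median position 136 bp downstream. The fullest bin, from 100 to 200 bp downstream, held 673 summits (16.4%), and 944 lay within 100 bp of the start. RNA-Pol2 summits had a median of 87 bp and 63.9% downstream, and H3K27me3 summits 203 bp and 69.5%.

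**Figure D4:**
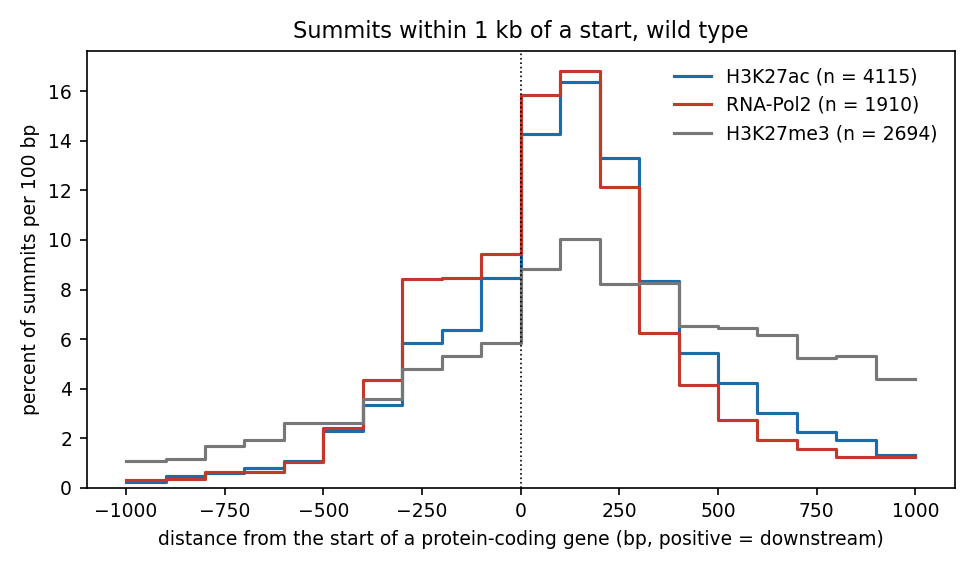
Position of wild type summits relative to the nearest protein-coding start, in bins of 100 bp, as percent of the summits within 1 kb. The H3K27ac curve is highest from 100 to 200 bp downstream, at 16.4% of 4115 summits.

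The promoter summits with the highest scores reached several windows with high counts. Among them were Ddx54, the highest (chromosome 5, 120612780, score 44.3), Cpsf2 (39.4), Cops5, a subunit of the COP9 signalosome (38.8), Tada3 (37.6), Cenpn (35.6) and Tardbp, an RNA-binding protein gene (33.1). The score is the authors' and ranks summits within this list only.

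The distal summits with the highest scores lay near genes of varied function. The first was 12.8 kb from the start of Dlg4, a postsynaptic scaffold gene (chromosome 11, 70029724, score 24.5), and lay within 500 bp of an RNA-Pol2 summit and of an H3K27me3 summit. The next were at Cln8 (7.26 kb, score 21.5), Tspan14 (10.1 kb, 19.2), Tob1, an antiproliferative gene (50.6 kb, 18.7), and Coro1c, an actin regulator gene (35.1 kb, 18.7). Vdac2, Numa1, Celsr2, Kat6b and Btbd16 followed, at 6.15, 35.8, 5.01, 18.6 and 81.3 kb. Kat6b and Dlg4 had unacetylated annotated starts, with 28 H3K27ac and 32 IgG reads and with 45 and 29. Cln8, Vdac2, Numa1 and Btbd16 also had unacetylated starts, with log2 ratios of -0.08, 0.36, 0.97 and -0.31. Those of Tspan14, Tob1, Coro1c and Celsr2 were acetylated. Genes were assigned by the nearest protein-coding start, which does not show that a summit acts on that gene.

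Most genes had no distal summit nearest to them. Of 21394 protein-coding genes 1697 were nearest to at least 1 distal summit (7.93%), 1187 of them to exactly 1 and 282 to 2. Dab2ip, a signalling scaffold gene of migrating neurons, had 12, Trak1, an adaptor of mitochondrial transport, 11, and Sept9, a septin gene, and Cstad 11 each. Srebf1, the regulator of lipid synthesis genes, Zmiz1 and Cep164 had 10 each. Bcl11b, a factor of subcerebral projection neurons, had 9, and Celf4, a neuronal RNA-binding protein gene, had 8. Of these 9 genes 6 had an acetylated promoter, among them Trak1 (93 and 13 reads) and Bcl11b (41 and 10). The exceptions were Dab2ip (83 and 34), Sept9 (59 and 45) and Cstad (83 and 37).

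Joined at the gap in common use for stitching enhancers, which lies between 5 and 25 kb, distal summits formed 117 clusters of at least 3, which held 467 summits (17.0%). The largest cluster had 10 summits over 30.9 kb, from 60154356 to 60185219 on chromosome 11, and its centre lay 52.8 kb from the start of Srebf1. Clusters of 8 had their centres 17.6 kb from the start of Mfng, 51.0 kb from that of Tcp11 and 155 kb from that of Cep164. The Mfng cluster, from 78730769 to 78780922 on chromosome 15, spans the start of Mfng. Adgrg1, an adhesion receptor gene needed for cortical layering, and Cstad had clusters of 7, with centres at 17.1 and 98.5 kb. The Notch1 cluster had 6 summits from 26485381 to 26505628 on chromosome 2, with its centre 21.2 kb from the start of the gene, and Coro1c and Cxxc5 also had 6.

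The share of genes nearest to a distal summit varied between the lists. Of 22 neurogenic genes 8 were nearest to a distal summit, of 33 cortical neuron genes 11 and of 32 cortical progenitor genes 10, against the 7.93% of all protein-coding genes. Of 28 Notch pathway genes 6 were, of 26 immediate early genes 10 and of 37 acetylation genes 6. Of 35 translation factor genes none was, of 54 splicing factors 4, of 31 proteasome genes 2 and of 78 ribosomal protein genes 10. Of 28 ventral forebrain genes 3 were, of 32 hem and signal genes 3, of 15 oligodendrocyte markers 4 and of 17 astroglial markers 4. Hox genes had none, and 38 midbrain, hindbrain and spinal cord regulators had 1. Examples were Sox9 with 5, Gli3, the repressor of hedgehog signalling, with 3, Sstr2 with 4, Bcl11a with 3 and Wnt7a, a signal of cortical progenitors, with 3. Neurog2 and Gli3 had ratios under 2-fold at their promoters (57 and 24 reads, 65 and 23 reads).

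The other wild type libraries changed with the level of H3K27ac. In 12674 windows under 5 RPM of H3K27ac the median was 4.83 RPM of RNA-Pol2, 2.53 of Eed, 1.90 of H3K27me3 and 7.79 of IgG. In 5931 windows with 40 to 80 RPM it was 35.5, 50.7, 15.8 and 18.4 RPM, and in 259 windows with at least 80 RPM 61.2, 64.4, 21.2 and 20.5 RPM. IgG was highest at 21.2 RPM in the windows with 10 to 40 RPM, whereas EedcKO IgG went up to 35.1 RPM in the highest class. Input went from 7.85 RPM in the lowest class to 27.5 RPM in the highest. The share of windows with an H3K27me3 summit was largest in the highest class, 23.9% of 259, and was 14.1% at 20 to 40 RPM. Across all 55385 windows the Pearson correlation of log2 RPM with H3K27ac was 0.87 for RNA-Pol2, 0.72 for H3K27me3, 0.68 for Eed, 0.67 for IgG and 0.80 for EedcKO IgG. For input it was 0.77. Windows share mappability and base composition, and many overlap, so these values describe the libraries only.

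**Figure D5:**
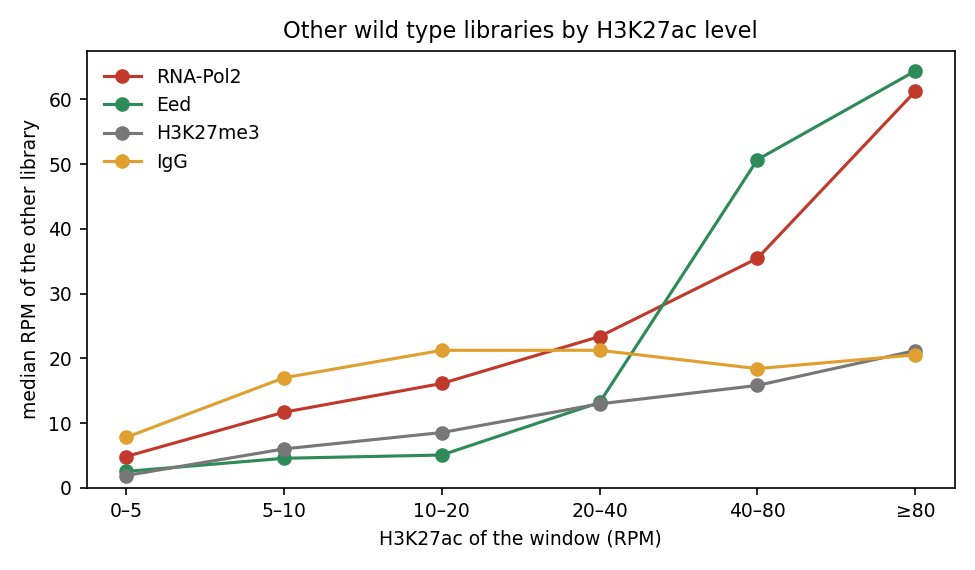
Median RPM of 4 other wild type libraries in windows grouped by their H3K27ac level (RPM). RNA-Pol2 goes from 4.83 to 61.2 RPM and Eed from 2.53 to 64.4 RPM across the classes, while IgG stays at or under 21.2 RPM. Wild type input, which is not drawn, goes from 7.85 to 27.5 RPM.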

How the data were processed

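Wild type forebrain chromatin was profiled with 1 library per target. The authors deposited read counts per promoter window in tables named for RPKM; the values are whole numbers with totals from 1018763 to 3161526 in the wild type libraries, and were treated as counts. The plan allowed for either unit. The deposited summit lists give 1 position per peak and library scored as −log10 of either a q-value or a p-value; the sources do not say which. Tools listed in the submitters' processing notes are ChIPseeker 1.22.1, deepTools 3.4.0, Bowtie2 2.4.1 and MACS2 2.2.7.1, and the build is mm10. Handling of duplicates and multiply mapped reads is not given in the sources used here, nor is the control used for peak calling.

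Gene types came from RefSeq symbols and synonyms (GRCm38.p6), which matched 39238 of 55385 windows. Ratios, intervals and distances were computed with Python 3.11.15, NumPy 2.4.6, pandas 2.3.3 and SciPy 1.17.1 and tested on simulated data. Members and lists were chosen with earlier results of these data known. Named genes were the 15 highest by ratio (at least 100 H3K27ac reads) and by read count among acetylated windows, without Gm, Rik and Mir models, the 10 highest of other gene types, up to 4 highest and 2 lowest members per list, the genes with the most or strongest distal summits, the largest clusters, and Eed, Ezh2, Suz12 and Pax6; some genes that the rule names are not reported here. Other list members and the top promoter summits were named after their values were seen. Alternatives changed the pseudocount, read minimum, scaling, control, fold and distances.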

Additional observations from a re-analysis of the deposited data

How the results depend on the processing

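No paired analysis was possible because each target has 1 library, and leaving out a replicate was not possible for the same reason. The 8009 acetylated windows became 4273 with EedcKO IgG as control, 17726 with both libraries scaled to windows with no summit of any list within 5 kb, which shifts all ratios by 0.95 on the log2 scale, and 1568 at 4-fold. Under that scaling to windows with no summit 80.02% of the windows past 2-fold lay above IgG, against 38.4% as reported, 51.3% with equal medians (10267 acetylated) and 64.0% with at least 50 reads (7616). The other alternatives gave 5475 to 8361 acetylated windows. The share of summits at promoters was 45.6% within 500 bp, 61.2% within 2.5 kb, 50.01% with protein-coding starts, 68.6% for scores at or above the median and 82.6% for scores of at least 10.3. The distal share was 38.8% over 2.5 kb, 24.96% over 10 kb, 40.7% with protein-coding starts and 21.1% for scores at or above the median. Joined within 5 kb there were 59 clusters. Against EedcKO IgG the log2 ratio turned to -0.75 for Gata6, -0.038 for Hoxa3, -0.21 for Pou3f1 and -0.18 for Vtn, and against the sum of both IgG libraries to -0.14 for Gata6; the cause was not tested. Lists with a median of at least 1 kept a positive median under every alternative. Windows with few reads limit precision: 5086 windows held no H3K27ac read.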

Other observations

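The 6 windows with the highest raw H3K27ac counts, looked at after their values were seen, had log2 ratios to IgG from -2.90 to -0.50. 1600014C10Rik on chromosome 7 held 577 H3K27ac, 594 IgG and 38 input reads. Gm42418 and Gm26917 on chromosome 17 held 431 and 412 H3K27ac reads beside 1315 and 1064 IgG reads and 1177 and 686 input reads. Sfi1 on chromosome 11 held 274 H3K27ac, 1494 IgG and 471 input reads. Counts there were also high in EedcKO IgG, with 564, 2425, 1961 and 1265 reads, and their H3K27ac counts alone would have placed all 4 above Hdlbp.

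None of 22 tested windows on chromosome Y was acetylated. On the other chromosomes the share of acetylated windows ran from 12.1% of 2823 tested windows on chromosome 6 to 24.2% of 2895 on chromosome 11. Chromosome X had 37 of the 8229 summits, 5 of them distal.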
